A study of Mus musculus with 9 samples.

Results

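The 8 genes described here regulate or mark the formative and primed states of the epiblast: Otx2, Sox3, Sox4, Foxd3, Zic2, Zic5, Sall2 and Cdh2. They were chosen by name, and all 8 matched an Ensembl identifier among the 37310 gene rows of the count files. All 8 also passed the filter on low counts that left 16224 genes for testing. RNA of mouse embryonic stem (ES) cells, derived from the E14 line, was sequenced in 9 libraries in 3 groups of 3, each collected at 72 h. The ethanol control and the Zbtb11 KO group both carry Zbtb11 lox/lox alleles, which Cre recombinase can cut out, and ERt2-Cre, a Cre that 4-hydroxytamoxifen (4OHT) activates, at Rosa26. The ethanol control received the carrier alone, and the Zbtb11 KO group received 250 nM 4OHT. The 4OHT control carries unmodified Zbtb11 and Rosa26 loci and received 250 nM 4OHT. The sources used here do not say whether either line is 1 clone, nor whether the replicates are separate cultures. The p-values therefore weigh differences against a spread between libraries that may be technical.

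The groups give 3 comparisons. Zbtb11 KO against the ethanol control keeps the line constant and changes the drug and the deletion, and is called the deletion comparison below after its label. The 4OHT control against the ethanol control changes the line and the drug with no deletion in either group, so line and drug cannot be told apart there. Zbtb11 KO against the 4OHT control keeps the drug constant and changes the line and the deletion. Each pair of comparisons shares a group of libraries, so they are not independent of each other.

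ES cells grown with serum and the cytokine LIF resemble the naive epiblast of the blastocyst. On the way to lineage choice, epiblast cells pass through a formative and then a primed state, in which naive factors are shut down and other regulators take over shared enhancers. Otx2, a homeodomain factor, redirects Pou5f1 to such enhancers, and Foxd3, a forkhead factor, and Zic2, a zinc finger factor, also act at enhancers during that exit. Cdh2 encodes N-cadherin, an adhesion protein that cells gain as they leave the epithelial epiblast.

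Gene counts per library lay between 16909139 and 23544893. The KO libraries stood apart in the share of reads that no gene row took, 33.6% to 34.6% against 27.3% to 29.6% in the 6 control libraries, and in their TMM factors, 1.02 to 1.06 against 0.972 to 0.998. The part of this in the differences of the KO group was not tested. Zbtb11 itself had 348 to 386 CPM (counts per 1000000, with library sizes scaled by TMM, edgeR's correction for library composition) over the 9 libraries, so its gene-level count was no lower in the KO group. The sources do not name the exons between the loxP sites, so this value is no check of the KO label. All groups expressed ES cell marker genes. The summed level of 10 of them was 4790 to 4950 CPM in the ethanol control, 4540 to 4730 in the KO group and 4820 to 5330 in the 4OHT control. Of the 10, Fut4, named here after its value was seen, was near the floor, at 0.587 to 1.8 CPM over the libraries. The 4OHT control also differed from the ethanol control by chromosome. There the median log2 fold change of the 816 tested genes on chromosome 8 was 0.24 and that of the 738 on chromosome 6 was -0.16, while the other 18 chromosomes had medians from -0.02 to 0.04. None of the 8 members lies on chromosome 6 or 8. Otx2, Zic2, Zic5 and Sall2 lie on chromosome 14, whose median was 0.01, and Foxd3, Sox4, Cdh2 and Sox3 lie on chromosomes 4, 13, 18 and X (GENCODE annotation of GRCm38).

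**Figure D1:**
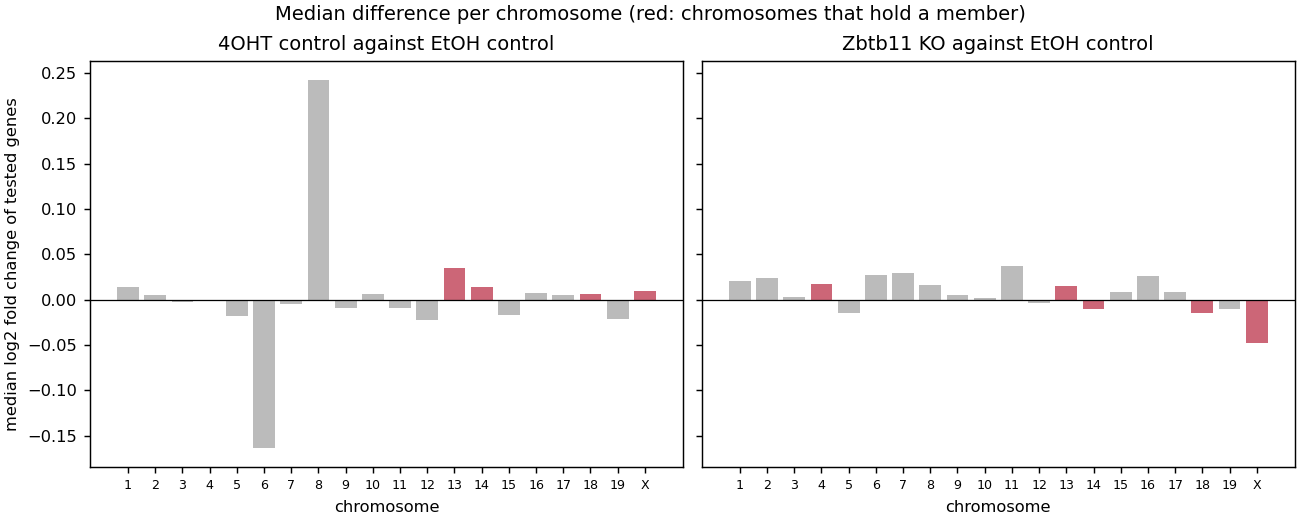
Median log2 fold change (y axis) of the tested genes on each chromosome (x axis), for the 4OHT control against the ethanol control on the left and Zbtb11 KO against the ethanol control on the right. Red bars are chromosomes that hold a member; the departures at chromosomes 8 (0.24) and 6 (-0.16) on the left are on chromosomes with no member.

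Promoter sequence from RefSeq was searched for Otx2, Sox4, Foxd3, Zic5 and Sall2. None was at hand for Sox3 and Zic2, and Cdh2 was left out of the search. Shown here are the 250 bases before the annotated transcript start of Sox4, Foxd3 and Zic5, chosen after their values were seen, because in each of them the KO library was below, and the 4OHT control library above, the ethanol library of the same replicate number. They are read 5′ to 3′ on the gene's own strand (RefSeq, GRCm38.p6), with matches to CCAAT on either strand in capitals.
Sox4 (chr13:28953700-28953949, minus strand): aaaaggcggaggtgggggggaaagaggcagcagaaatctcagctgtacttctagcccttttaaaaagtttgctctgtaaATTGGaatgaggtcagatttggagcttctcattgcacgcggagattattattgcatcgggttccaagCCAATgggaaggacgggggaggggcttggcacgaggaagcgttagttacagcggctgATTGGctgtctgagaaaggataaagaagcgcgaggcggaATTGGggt
Foxd3 (chr4:99656049-99656298, plus strand): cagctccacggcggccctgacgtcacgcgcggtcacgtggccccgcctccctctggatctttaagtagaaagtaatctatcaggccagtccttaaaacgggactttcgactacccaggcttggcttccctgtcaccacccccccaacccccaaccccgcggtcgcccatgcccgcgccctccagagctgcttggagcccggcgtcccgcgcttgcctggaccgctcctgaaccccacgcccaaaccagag
Zic5 (chr14:122465659-122465908, minus strand): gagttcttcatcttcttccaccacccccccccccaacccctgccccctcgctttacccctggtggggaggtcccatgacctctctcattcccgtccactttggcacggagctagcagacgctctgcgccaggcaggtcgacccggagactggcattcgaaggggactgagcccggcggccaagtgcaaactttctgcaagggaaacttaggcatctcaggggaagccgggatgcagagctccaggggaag

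The window of Sox4 holds 4 matches to CCAAT, those of Foxd3 and Zic5 hold 0, and 33.8% of 32851 windows of this length over all promoters hold at least 1. The windows were also searched on both strands for TATAAA (12.4% of all windows), GGGCGG (32.7%), TAATCC, a motif of bicoid-type homeodomains such as that of Otx2 (6.25%), and ACAAAG, a motif of Sox factors (16.5%). Neither these 4 nor ATGCAAAT, the octamer bound by POU factors (1.6%), occurred in the 3 windows. Otx2 and Sall2, whose windows are not shown, have more than 1 annotated start each. Separate windows of Otx2 held TAATCC (211 bases before the start), TATAAA (192) and CCAAT (70). A window of Sall2 held TATAAA (145) and CCAAT (86). The remaining windows of these genes held no match to the motifs searched. Bases G and C made up 50.8% of the Sox4 window, 65.6% of the Foxd3 window and 62.4% of the Zic5 window, against a median of 52.4%.

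Per kilobase of exon, Zic2 was the highest member in the ethanol control, at 27.2 ± 3.97 CPM per kb (SD, n = 3), followed by Foxd3 (16.5 ± 0.685) and Zic5 (12.1 ± 1.32). Otx2 had 7.07 ± 0.845 CPM per kb, Sox4 4.08 ± 0.677, Sall2 3.17 ± 0.276, Cdh2 2.21 ± 0.0521 and Sox3 2.13 ± 0.275. The last 2 lay within their spread of each other, and the mean ± SD ranges of Sox4 and Sall2 overlapped. The first 4 places were the same in all 3 groups. Below them, Sall2 (4.17 ± 0.594) had a higher mean than Sox4 (3.46 ± 0.383) in the KO group, and Sox3 (3.71 ± 0.522) and Sall2 (3.75 ± 0.741) lay within their spread in the 4OHT control, where Cdh2 was lowest (1.37 ± 0.0606). For comparison between groups, levels are given below in CPM.

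Most members already differed between the control groups, which differ in line and drug and carry no labelled deletion. In the 4OHT control, 5 of 8 members rose (Otx2, Sox3, Sox4, Foxd3, Zic2), 1 fell (Cdh2) and Zic5 and Sall2 were not called by edgeR's quasi-likelihood test at an adjusted p under 0.05. Across all tested genes 18.4% were called, 9.66% higher and 8.75% lower. The median log2 fold change was 0.36 over the members and 0.00 over all genes.

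Otx2 had 27.8, 27.7 and 33.9 CPM in the ethanol control and 40.7, 34.1 and 39.4 CPM in the 4OHT control. All 3 libraries of the 4OHT control lay above those of the ethanol control, although the lowest of them was close to the highest ethanol library. The log2 fold change was 0.36 (SE 0.09, edgeR adjusted p = 0.014). The call ended without ethanol replicate 1 or 2 or 4OHT control replicate 1 (adjusted p = 0.065, 0.083 and 0.059). A long noncoding RNA, Otx2os1, overlaps Otx2 on the opposite strand, is not among the counted genes, and could share its reads if counting ignored strand, which is not stated. Gm49154 overlaps Otx2 on the same strand and is not among the counted genes either, so its reads could add to Otx2 even with strand. Overlaps given here and below are of whole gene spans, and whether exons overlap was not examined.

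The Sox members, of separate subfamilies, both rose. Sox3, a close relative of Sox2, had 3.82, 4.42 and 4.96 CPM in the ethanol control and 6.54, 8.69 and 7.73 CPM in the 4OHT control, the largest rise among the members. The groups did not overlap, and the log2 fold change was 0.80 (SE 0.16, edgeR adjusted p = 0.0022), called in all 16 alternative analyses. These levels rest on 83 to 161 counts per library in those groups. Sox4, a factor of many progenitor cells, had 16.3, 19.5 and 22.8 CPM in the ethanol control and 22.1, 28.7 and 29.3 CPM in the 4OHT control. The lowest 4OHT control library was below the highest ethanol library, and the log2 fold change was 0.45 (SE 0.13, edgeR adjusted p = 0.031). That call ended without ethanol replicate 1 or 2, KO replicate 2 or 4OHT control replicate 2 or 3 (adjusted p = 0.11, 0.098, 0.053, 0.11 and 0.11). A noncoding RNA on the opposite strand, Gm26735, overlaps Sox4 and is not among the counted genes, so the limit given for Otx2os1 holds here too.

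Foxd3 had 40.1, 37.2 and 37.6 CPM in the ethanol control and 52.9, 53.1 and 42.1 CPM in the 4OHT control. The groups did not overlap, with 4OHT control replicate 3 close to the ethanol libraries. A microRNA gene on the same strand, Gm23366, lies across the span of Foxd3 and has a row of its own. The log2 fold change was 0.36 (SE 0.09, edgeR adjusted p = 0.014), and the call ended without ethanol replicate 2 or 4OHT control replicate 1 or 2 (adjusted p = 0.062, 0.053 and 0.061).

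Zic2 and Zic5 are neighbours on chromosome 14 on opposite strands, and encode related zinc finger factors. Zic2 had 72.2, 71.1 and 91.4 CPM in the ethanol control and 89.2, 106 and 109 CPM in the 4OHT control, with an overlap of 1 library from each group. Its log2 fold change was 0.38 (SE 0.11, edgeR adjusted p = 0.041), or adjusted p = 0.055 with the replicate block, a term for the replicate number that pairs libraries across groups. The call of Zic2 was also lost with library totals (adjusted p = 0.059), and on leaving out ethanol replicate 1 or 2, KO replicate 3 or 4OHT control replicate 2 or 3 (0.13, 0.14, 0.064, 0.13 and 0.12). Zic5 had 53.9, 56.8 and 66.3 CPM against 61.3, 73.5 and 78.2 CPM, a log2 fold change of 0.27 (SE 0.10, edgeR adjusted p = 0.087). Zic5 was called with the replicate block (adjusted p = 0.00013), without a filter on low counts (0.0019), and without ethanol replicate 3 (0.033) or 4OHT control replicate 1 (0.015).

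Sall2, a spalt-type zinc finger factor, overlapped between the control groups. It had 15.6, 17.4 and 18.6 CPM in the ethanol control and 15.7, 22.3 and 23.1 CPM in the 4OHT control. The log2 fold change was 0.24 (95% interval -0.07 to 0.56, edgeR adjusted p = 0.28), and the call was made with the replicate block (adjusted p = 0.018) and without 4OHT control replicate 1 (0.40, adjusted p = 0.029).

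Cdh2 went the other way from the transcription factors. It had 17.3, 18.0 and 18.1 CPM in the ethanol control and 10.8, 11.6 and 10.8 CPM in the 4OHT control, with no overlap. It fell by 0.69 on the log2 scale (SE 0.11, edgeR adjusted p = 0.00030) and was called in all 16 alternatives. An antisense gene, Gm15485, overlaps the span of Cdh2 and has a row of its own. Where their exons overlap, which was not examined, their reads cannot be told apart without strand. Fibroblast markers moved in the same comparison: of 14 listed, 8 were tested, 4 fell and 1 rose, and their summed level was 42.7 to 52.8 CPM in the ethanol control against 30.8 to 35.1 CPM in the 4OHT control. Of the 14 markers, 7 were under 1 CPM in every library, among them Lum, Postn and Dcn, named here after their values were seen. Acta2 fell by 3.19 on the log2 scale and Col1a2, on chromosome 6, fell by 2.05. Mesendoderm and endoderm markers summed to 275 to 289 CPM in the ethanol control and 144 to 158 CPM in the 4OHT control, and 3 of 16 tested fell. The laminin gene Lama1 made up most of that sum, with means of 249 and 122 CPM. The part of these markers in the lower Cdh2 level was not tested, and fewer cells of a type cannot be told apart from less RNA per cell in bulk libraries.

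Neural progenitor markers were called in both directions between the control groups. Of 14 tested, 3 rose and 1 fell (5 and 3 with the replicate block), while the sum over the 22 matched markers was 273 to 327 CPM in the ethanol control and 271 to 325 CPM in the 4OHT control. Tubb3, named here after its value was seen, was the largest part of that sum. Its means were 109, 103 and 116 CPM in the ethanol, KO and 4OHT control groups. Of the 22 markers, 10 were under 1 CPM in every library. En2 rose by 0.57, Map2 by 0.40 and Nes, named after its value was seen, by 0.45 (edgeR adjusted p = 0.0018, 0.023 and 0.040). Dll1, which encodes a Notch ligand, fell by 1.48 (edgeR adjusted p = 0.027). The Map2 call was lost on leaving out ethanol replicate 1 or 2 or 4OHT control replicate 3 (adjusted p = 0.070, 0.12 and 0.12), and that of Dll1 without ethanol replicate 2 or any 1 of the 4OHT control libraries (0.059 to 0.086). The Nes call was lost without ethanol replicate 1 or 2, KO replicate 2 or 4OHT control replicate 2 or 3 (0.13, 0.13, 0.066, 0.094 and 0.13). Of 10 tested trophoblast markers 2 rose and 1 fell, with sums of 83.5 to 91.8 CPM and 64.6 to 79.4 CPM. Tfap2c, the marker that fell, made up most of that sum, with means of 68.8 and 47.7 CPM. The part of these markers in the higher levels of Otx2, Sox3, Sox4, Foxd3 and Zic2 was not tested.

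**Figure D2:**
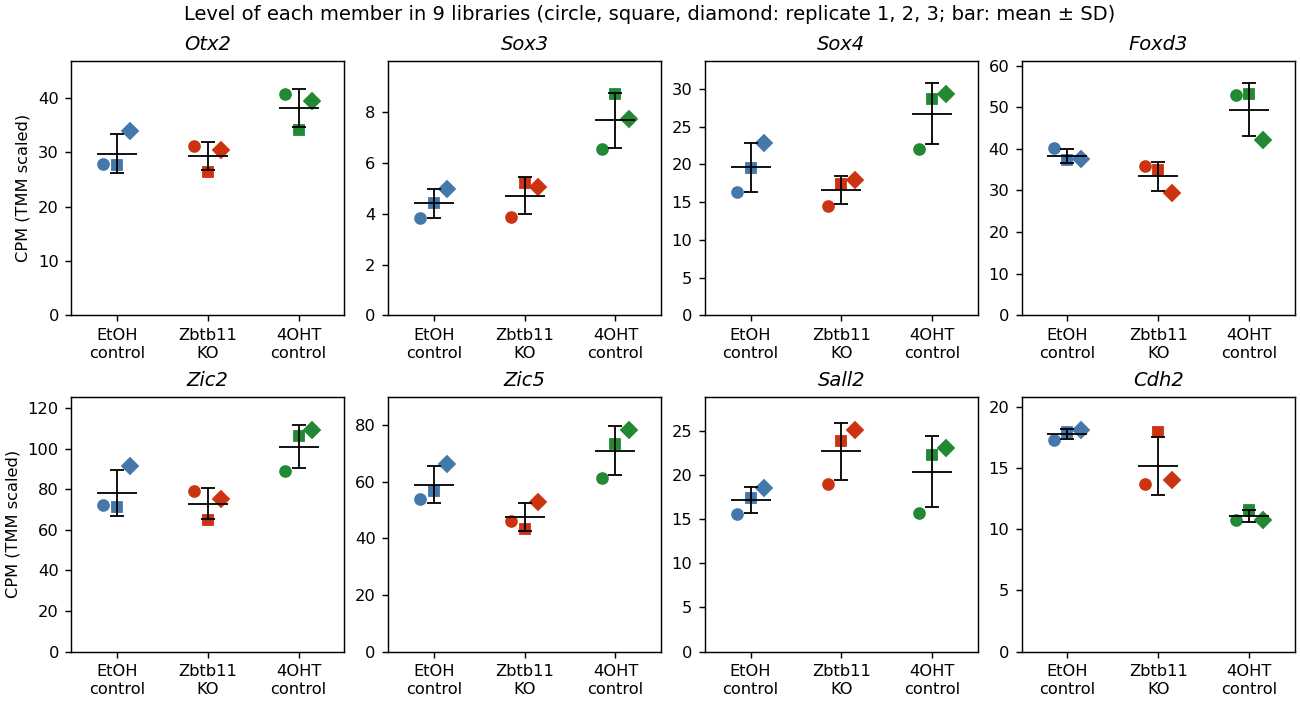
Level of each member (y axis, TMM-scaled CPM from 0) in the 9 libraries, by group (x axis); circles, squares and diamonds are replicates 1, 2 and 3, and black marks are the mean ± SD of 3 libraries. Sox3 and Cdh2 show 4OHT control libraries well apart from the ethanol control (6.54 to 8.69 against 3.82 to 4.96 CPM, and 10.8 to 11.6 against 17.3 to 18.1 CPM).

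The deletion comparison stays within the floxed line. In Zbtb11 KO against the ethanol control 1 of 8 members fell (Zic5), 0 rose and 7 were not called, where 27.2% of all tested genes were called, 13.0% higher and 14.2% lower. With the replicate block, 4 members fell (Sox4, Foxd3, Zic5, Cdh2) and 1 rose (Sall2), beside 42.8% of all genes, 20.4% higher and 22.3% lower. The count without the block, 1 of 8, is below the share of all genes, and the count with it, 5 of 8, is above its share. Neither difference from the share was tested. The median log2 fold change over the members was -0.15, against 0.01 over all genes. With library totals in place of TMM scaling, the split of called genes moved from 47.8% to 66.5% higher.

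Zic5 had 46.1, 43.4 and 52.8 CPM in the KO group, below all ethanol libraries (53.9, 56.8 and 66.3 CPM). It fell by 0.31 on the log2 scale (SE 0.10, edgeR adjusted p = 0.040; the replicate block gave 1.9e-05). The call was lost with library totals (-0.24, adjusted p = 0.087) and on leaving out ethanol replicate 2 or 3, KO replicate 1 or 2 or 4OHT control replicate 2 (adjusted p = 0.076, 0.14, 0.11, 0.12 and 0.055). Its neighbour Zic2 had 78.9, 64.6 and 75.2 CPM in the KO group, of which replicate 2 was below the ethanol libraries and the other 2 were among them. The log2 fold change of Zic2 was -0.10 (95% interval -0.35 to 0.15, edgeR adjusted p = 0.57), and 0.02 without ethanol replicate 3.

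Sall2 was the member whose estimate was highest after deletion. It had 19.0, 23.9 and 25.1 CPM in the KO group, all above the ethanol libraries (15.6 to 18.6 CPM). The log2 fold change was 0.40 (SE 0.14, edgeR adjusted p = 0.054), just outside the threshold, and 9 of 16 alternatives called it, including the replicate block (7.2e-05), DESeq2 (0.033) and the fit of the groups compared (0.014). Its range over the alternatives was 0.31 to 0.51, with adjusted p from 7.2e-05 to 0.17.

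Foxd3 had 35.9, 34.9 and 29.3 CPM in the KO group, all below the ethanol control (37.2 to 40.1 CPM). The log2 fold change was -0.20 (95% interval -0.40 to 0.01, edgeR adjusted p = 0.14; the replicate block gave 0.0090). Sox4 had 14.5, 17.4 and 17.9 CPM, overlapping the ethanol libraries, with a log2 fold change of -0.23 (95% interval -0.53 to 0.06, edgeR adjusted p = 0.23, or 0.013 with the block). Cdh2 had 13.7, 18.0 and 14.0 CPM, where KO replicate 2 sat among the ethanol libraries and the other 2 sat below them. Its log2 fold change was -0.23 (95% interval -0.45 to -0.01, edgeR adjusted p = 0.12), called with the block (0.026) and without KO replicate 2 (-0.38, adjusted p = 0.0097). Among the members, the groups did not overlap for 3 of 8 (Zic5 and Foxd3 lower, Sall2 higher), while 41.9% of all tested genes showed no overlap in this comparison.

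No difference was detected for Otx2 and Sox3 in the deletion comparison at this depth. Otx2 had 31.2, 26.4 and 30.4 CPM in the KO group, with a log2 fold change of -0.02 (95% interval -0.22 to 0.18, edgeR adjusted p = 0.90), which was 0.05 with library totals, 0.08 without ethanol replicate 3 and 0.04 without KO replicate 2. Sox3 had 3.86, 5.20 and 5.04 CPM, with a log2 fold change of 0.10 (95% interval -0.25 to 0.45, edgeR adjusted p = 0.70). The upper bounds of both intervals lie below the estimates of the same genes between the control groups (0.36 and 0.80).

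The replicate numbers pair the libraries, and the differences can be read within each number. In the deletion comparison, Zic5 was lower at all 3 numbers (-0.22, -0.39 and -0.33 in log2 CPM), as were Sox4 (-0.17, -0.17 and -0.35) and Foxd3 (-0.16, -0.09 and -0.36). Cdh2 was also negative at all 3, but close to 0 at number 2 (-0.33, -0.0016 and -0.37). Sall2 was higher at all 3 (0.28, 0.45 and 0.43), and Sox3 was positive at all 3 with 2 values close to 0 (0.014, 0.23 and 0.024). Otx2 and Zic2 had 1 positive and 2 negative differences each. Between the control groups, 7 members were higher in the 4OHT control at all 3 numbers and Cdh2 lower at all 3, with Sall2 at number 1 close to 0 (0.01).

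**Figure D3:**
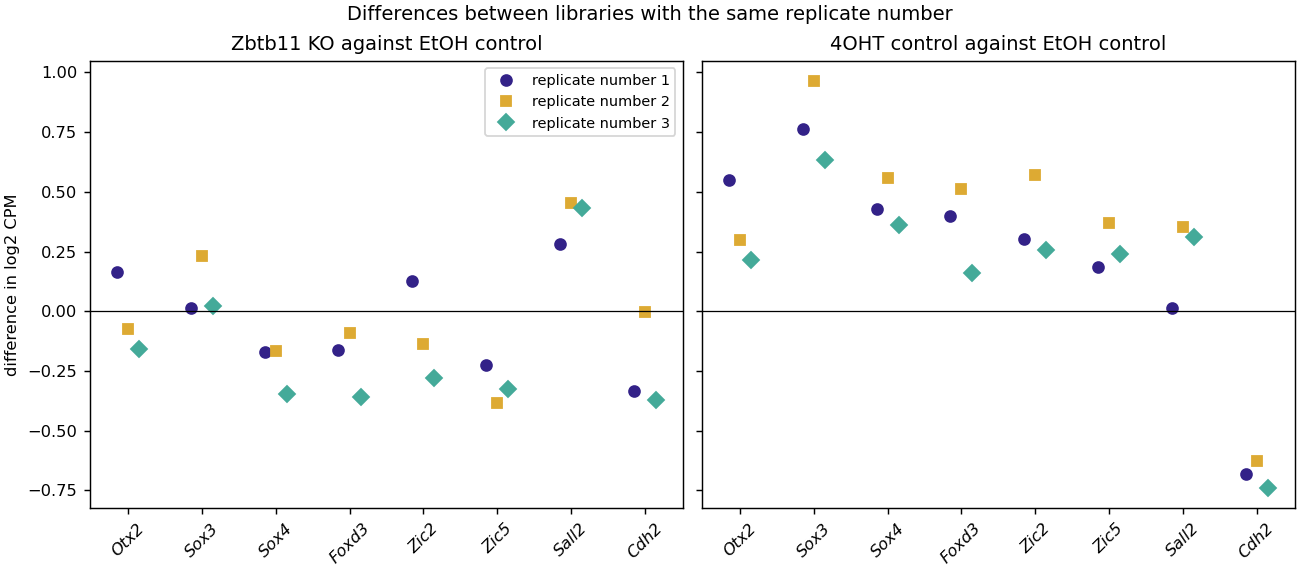
Difference in log2 CPM (y axis) between libraries with the same replicate number, for each member (x axis), each group set against the ethanol control, Zbtb11 KO on the left and the 4OHT control on the right. On the left Sox4, Foxd3, Zic5 and Cdh2 lie below 0 and Sall2 and Sox3 above 0 at all 3 numbers, with Cdh2 at number 2 and Sox3 at numbers 1 and 3 close to 0, and on the right 7 members lie above 0 and Cdh2 below it.

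The last comparison holds the drug constant and changes line and deletion. In Zbtb11 KO against the 4OHT control 6 of 8 members fell, 1 rose (Cdh2) and Sall2 was not called, beside 38.9% of all genes called, 19.1% higher and 19.8% lower. The median log2 fold change was -0.52 over the members and 0.02 over all genes. Library totals moved the split of called genes from 49.1% to 64.4% higher and left the 7 member calls in place. Sox3 fell by 0.70, Sox4 by 0.69, Zic5 by 0.58, Foxd3 by 0.56, Zic2 by 0.47 and Otx2 by 0.38 on the log2 scale (edgeR adjusted p from 0.00027 to 0.0069). Cdh2 rose by 0.46 (edgeR adjusted p = 0.0031). These 7 calls held in all 16 alternatives. The libraries of the groups did not overlap for 7 of 8 members, where 48.2% of all genes showed no overlap. Against the ethanol control the corresponding count for the 4OHT control was 4 of 8 (Otx2, Sox3 and Foxd3 higher, Cdh2 lower), where 35.1% of all genes showed no overlap.

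The 3 comparisons come from 1 fit, so any 1 follows from the other 2, and their values are set side by side as a description. For Sox3 and Otx2 the log2 fold change of the 4OHT control against the ethanol control (0.80 and 0.36) stood beside -0.70 and -0.38 for KO against the 4OHT control and 0.10 and -0.02 for the deletion comparison. For Sox4, Foxd3 and Zic5 the KO group differed from the 4OHT control by -0.69, -0.56 and -0.58, beside 0.45, 0.36 and 0.27 between the control groups and -0.23, -0.20 and -0.31 in the deletion comparison, where Zic5 was called. For Cdh2 both estimates against the ethanol control were negative, -0.69 for the 4OHT control and -0.23 for the KO group. Sall2 had positive estimates in both (0.24 and 0.40). For Zic2 the values were 0.38 between the control groups, -0.47 for KO against the 4OHT control and -0.10 in the deletion comparison.

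**Figure D4:**
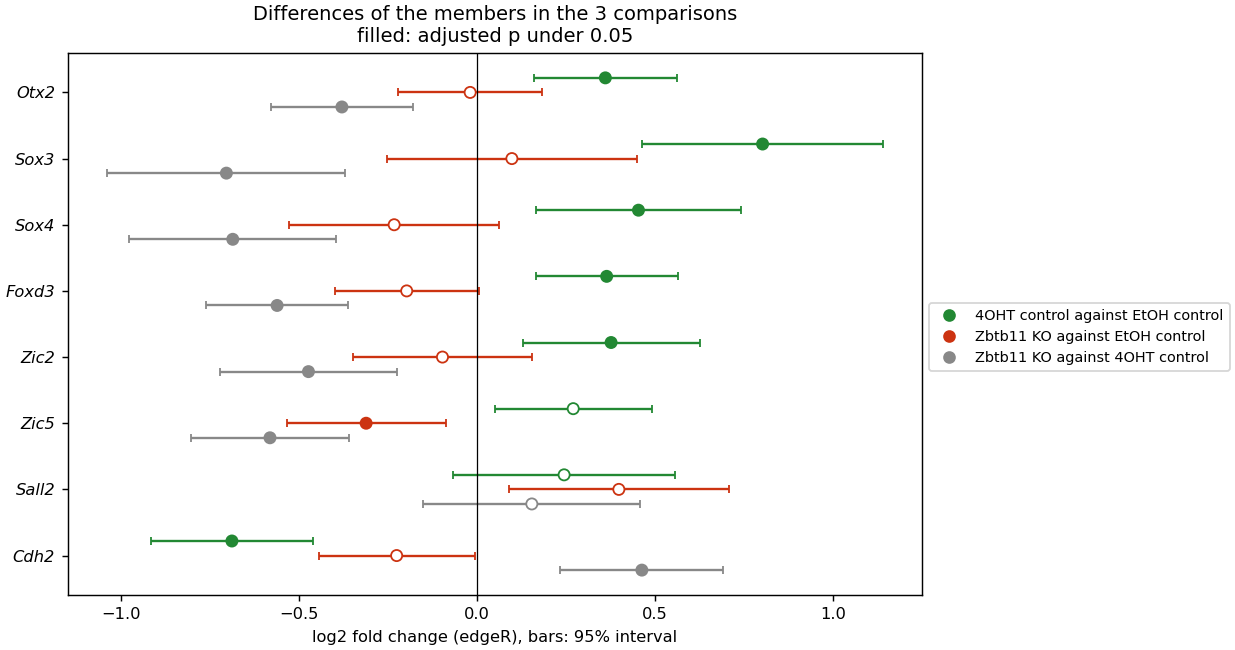
Log2 fold changes of the members (x axis) with 95% intervals in the 3 comparisons, coloured by comparison; filled points have an edgeR adjusted p under 0.05. The 4OHT control is above the ethanol control for Otx2, Sox3, Sox4, Foxd3 and Zic2, and the KO group differs from the ethanol control past the threshold for Zic5 (-0.31).

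Over the 9 libraries, the members differed in how alike their patterns were. Likeness was measured as the root mean square difference of log2 CPM after centring each gene on its own mean, where 0 would be an identical pattern. Zic2 and Zic5 were the closest of the 28 pairs (0.116), then Sox4 and Zic5 (0.125) and Otx2 and Zic2 (0.129), and Sox3 and Cdh2 were the farthest apart (0.644). Among 10545 other genes whose mean log2 CPM reached 2, the closest to Zic5 were Ank2 (0.0509) and Camk2b (0.0580), and the closest to Zic2 were Galns (0.0520) and Lmbr1 (0.0897). Elovl6 (0.0567) and Nectin2 (0.0658) were closest to Foxd3, Narf (0.0671) and Reck (0.0738) to Otx2, and Tuba1a (0.0733) and Smo (0.0830) to Sox4. Sox3 and Sall2 had no neighbour as close, with Myo1f at 0.125 and Slc20a2 at 0.140 for Sox3 and Rasl10b at 0.102 and Slc29a4 at 0.118 for Sall2. The measure is not scaled, so it grows with counting noise and with the size of a gene's differences. Sox3 had the fewest counts of the members, so its larger distances do not by themselves mark an unusual pattern. The genes closest to Cdh2, Rpusd3 (0.0714) and Mrpl51 (0.0776), both lie on chromosome 6, where the median was lower in the 4OHT control. Galns and Slc20a2 lie on chromosome 8, where it was higher.

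Close relatives of the members moved in both directions. Of 20 listed, 13 were tested: 1 rose and 1 fell after deletion against the ethanol control (4 and 2 with the replicate block), and 3 rose and 2 fell in the 4OHT control against it. Sall3, a relative of Sall2, rose in both comparisons, from 12.9 ± 0.745 CPM in the ethanol control to 26.3 ± 2.43 in the KO group (log2 fold change 1.03, edgeR adjusted p = 1.5e-05) and 42.5 ± 6.96 in the 4OHT control (1.72, adjusted p = 1.7e-07; SD, n = 3). Sall1, on chromosome 8, rose by 0.66 in the 4OHT control and had a log2 fold change of 0.06 on deletion (edgeR adjusted p = 1.7e-06 and 0.48). Sox12, of the subfamily of Sox4, fell by 0.48 on deletion (edgeR adjusted p = 0.0027). Sox2 had 479, 477 and 470 CPM as means of the ethanol, KO and 4OHT control groups, with log2 fold changes of -0.01 and -0.03 against the ethanol control (edgeR adjusted p = 0.95 and 0.79). Sox21 fell by 0.95 in the 4OHT control (edgeR adjusted p = 0.00025), with 0.19 on deletion (adjusted p = 0.30; the block gave 0.042). Sox1 was not analysed here.

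Other genes of the formative and primed states give the setting of the members. Of 37 listed, 35 were tested, 10 fell and 4 rose in KO against the ethanol control, with a median log2 fold change of -0.14, and 18 fell and 6 rose with the replicate block. In the 4OHT control against the ethanol control 4 rose and 4 fell (9 and 8 with the block), with a median of 0.13. The list was written with earlier results of these data known. Counts of the lists can be read beside the shares of all tested genes. In the deletion comparison these were 13.0% higher and 14.2% lower, or 20.4% and 22.3% with the block. Between the control groups they were 9.66% higher and 8.75% lower. With the block, 2754 of 16224 genes were higher there and 2569 lower. No departure of a list from these shares was tested. Lef1, a Wnt pathway transcription factor, went from 51.3 ± 5.6 CPM in the ethanol control to 29.5 ± 2.02 CPM in the KO group and had 52.2 ± 4.74 CPM in the 4OHT control (SD, n = 3). It fell by 0.79 on deletion (edgeR adjusted p = 8.0e-06). Dnmt3b, a de novo DNA methyltransferase of the formative state, fell by 0.65 (edgeR adjusted p = 2.3e-05), with 0.21 in the 4OHT control (adjusted p = 0.073; the block gave 0.00034). For the related Dnmt3a the log2 fold change was -0.30 (edgeR adjusted p = 0.10; the block gave 5.5e-05).

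Genes of this list that rose in the deletion comparison encode signals as well as a factor. Nodal, a ligand that maintains the primed epiblast, went from 58.7 ± 2.23 to 120 ± 10.5 CPM and had 64.4 ± 6.84 CPM in the 4OHT control (SD, n = 3; log2 fold change on deletion 1.03, edgeR adjusted p = 1.3e-07). The ligand genes Wnt3 and Wnt8a, named here after their values were seen, rose by 1.82 and 1.27 from low levels (mean log2 CPM 0.38 and 0.06 over all libraries; edgeR adjusted p = 3.2e-05 and 0.0051). The fourth was Sall3, which rose more in the 4OHT control (1.72). In KO against the 4OHT control Sall3 was lower (-0.69, edgeR adjusted p = 0.00015), while Nodal, Wnt3 and Wnt8a were higher (0.90, 1.6 and 2.2). Etv5, a target of FGF signalling, fell by 0.22 on deletion and rose by 0.74 in the 4OHT control (edgeR adjusted p = 0.0048 and 1.4e-07). Fgf5, a marker of the formative state, had 0.379, 0.394 and 0.653 CPM as means of the ethanol, KO and 4OHT control groups, and Pou3f1 had 0 to 1 counts per library.

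**Figure D5:**
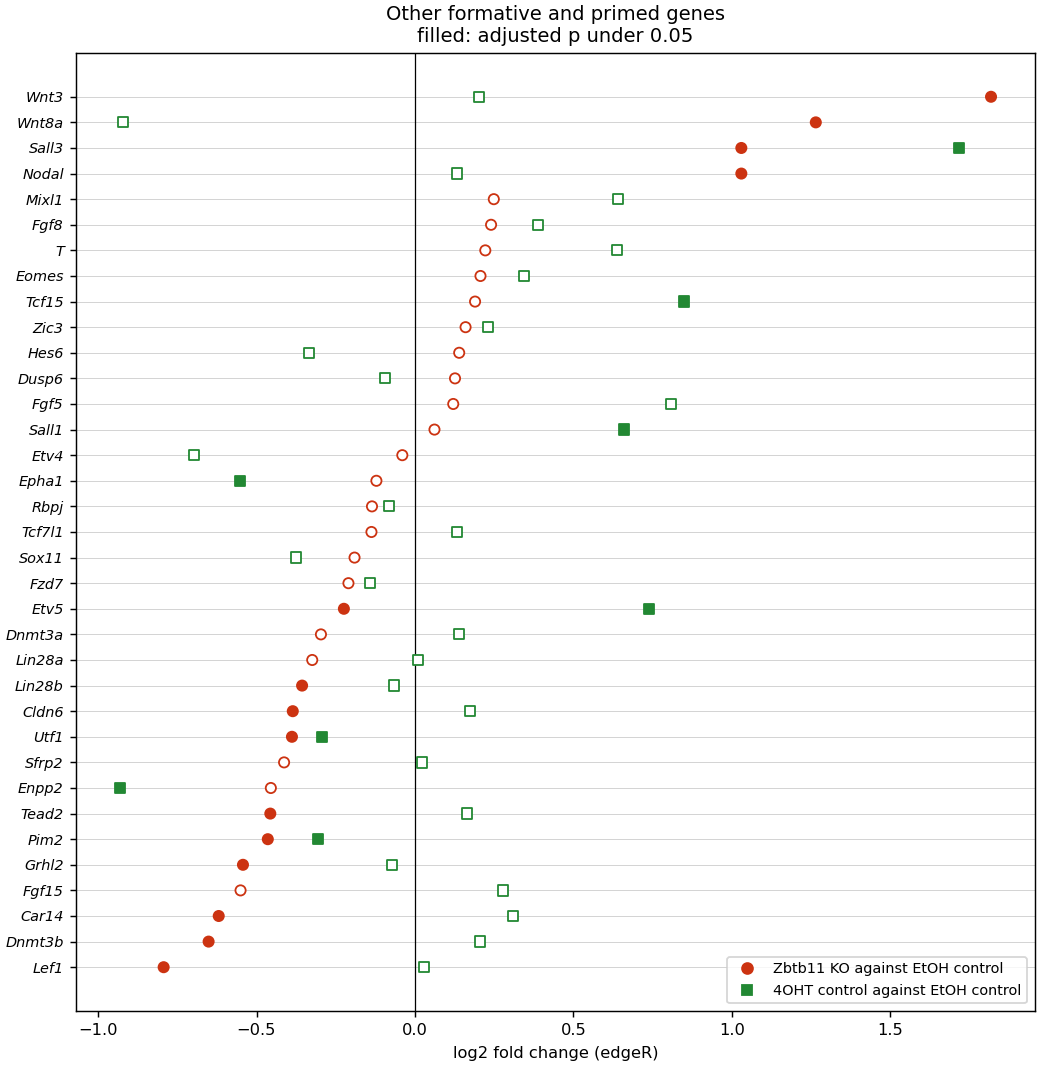
Log2 fold changes (x axis) of 35 tested formative and primed genes outside the members (y axis, ordered by the difference on deletion), each group against the ethanol control, with Zbtb11 KO as red circles and the 4OHT control as green squares; filled points have an edgeR adjusted p under 0.05. Lef1 (-0.79) and Dnmt3b (-0.65) are at the low end for deletion, and Nodal (1.03), Sall3 (1.03), Wnt8a (1.27) and Wnt3 (1.82) at the high end. Sall3 is higher still in the 4OHT control (1.72).

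Naive pluripotency genes, which are shut down on the way to the formative state, were counted in the same way. Of 25 tested, 10 fell and 0 rose in KO against the ethanol control (median -0.17; 15 fell and 3 rose with the block, and 6 fell with library totals), and 7 rose and 4 fell in the 4OHT control (median 0.15; 13 and 7 with the block). Klf5 and Nr0b1, both naive factors, each fell by 0.45 on deletion (edgeR adjusted p = 0.00011 and 0.00073), and Nr0b1 rose by 0.33 in the 4OHT control (edgeR adjusted p = 0.0089). Of the landmark genes in this list, Esrrb fell by 0.24 on deletion (edgeR adjusted p = 0.031). Zfp42, Nanog and Klf4 were not called, at -0.07, 0.05 and 0.25 (edgeR adjusted p = 0.30, 0.83 and 0.070), though the block called Klf4 higher (1.8e-06). Spp1 and Jam2 rose by 1.38 and 0.98 in the 4OHT control (edgeR adjusted p = 6.0e-10 and 6.8e-09), while Socs3 fell by 0.55 (edgeR adjusted p = 2.3e-05). Of 9 genes listed as core pluripotency genes 2 fell on deletion, Utf1 (-0.39) and Tcf3 (-0.39). Their values in the 4OHT control, which is set against the same ethanol libraries, were -0.29 and -0.37. Tcf3 here is the E protein gene of that symbol, so of these 2 only Utf1 is read as a pluripotency gene. With the block, 1 of the 9 listed genes rose and 3 fell on deletion, and 3 rose and 2 fell in the 4OHT control.

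Signalling genes of the epiblast were also counted. Of 19 tested genes of the Nodal and activin pathway 1 rose (Nodal) and 3 fell on deletion (5 and 3 with the block). Those that fell were the repressor gene Tgif2 (-0.43), Foxh1 (-0.39), which encodes the partner of Smad proteins at their targets, and Skil (-0.26), the last named after its value was seen. The call of Skil was lost with library totals and on leaving out ethanol replicate 2 or 3 or KO replicate 1 or 2 (adjusted p = 0.072, 0.067, 0.12, 0.10 and 0.072). Between the control groups 0 rose by edgeR and 2 fell (5 and 4 with the block). Of 24 genes of the FGF and ERK pathway 1 rose and 5 fell on deletion (3 and 7 with the block), and 3 rose and 4 fell in the 4OHT control (5 and 10 with the block). Mapk3, which encodes the kinase ERK1, fell by 0.90 on deletion, and Fgfr1, the main FGF receptor gene of ES cells, rose by 0.43 (edgeR adjusted p = 2.3e-06 and 8.3e-05). In the 4OHT control, against the same ethanol libraries, Mapk3 fell by 0.43 and Fgfr1, on chromosome 8, rose by 0.33 (edgeR adjusted p = 0.0023 and 0.0012). Between KO and the 4OHT control Mapk3 fell by 0.47, and the value of Fgfr1 was 0.10 (edgeR adjusted p = 0.00049 and 0.19; the block gave 0.039 for Fgfr1).

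Of 21 tested genes of cadherin adhesion and mesenchymal transition, the setting of Cdh2, 1 rose and 3 fell on deletion (4 and 10 with the block), and 3 rose and 1 fell in the 4OHT control (5 and 6 with the block). Cdh1, which encodes E-cadherin and lies on chromosome 8, had 427, 394 and 485 CPM as means of the ethanol, KO and 4OHT control groups. It rose by 0.18 in the 4OHT control (edgeR adjusted p = 0.041), a call that ended with library totals (0.078) and without ethanol replicate 2 or 3 or 4OHT control replicate 1 or 2 (0.13, 0.14, 0.19 and 0.067). On deletion Esrp1, an epithelial splicing factor, fell by 0.85, and Fn1, which encodes fibronectin, by 0.45 (edgeR adjusted p = 0.00017 and 0.00018). Esrp1 rose by 0.42 in the 4OHT control (edgeR adjusted p = 0.018), a call lost without ethanol replicate 2 or 3 or 4OHT control replicate 1 (0.057, 0.070 and 0.066).

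Markers of differentiated cells were set beside the deletion comparison too. Of 24 neural progenitor markers 14 were tested and 0 were called by edgeR on deletion (3 at an unadjusted p under 0.05, and 0 by DESeq2), while 2 rose and 2 fell with the replicate block, with sums of 273 to 327 CPM in the ethanol control and 275 to 333 CPM in the KO group. Dll1 had 16.0, 20.8 and 31.9 CPM in the ethanol control and 30.2, 35.2 and 50.1 CPM in the KO group, higher at each number (log2 fold change 0.76, edgeR adjusted p = 0.11; the block gave 2.3e-10). Of 20 mesendoderm and endoderm markers 16 were tested, Gata6, Gata4 and Sox17 rose and Lama1 fell (6 rose and 1 fell with the block), with a median log2 fold change of 0.25. Their sum was 275 to 289 CPM in the ethanol control and 231 to 274 CPM in the KO group, most of it Lama1, with means of 249 and 210 CPM. Gata6 had 3.63 CPM, Gata4 3.83 CPM and Sox17, named after its value was seen, 0.739 CPM as means of the KO group. The Gata4 call was lost on leaving out ethanol replicate 2 or 3 or KO replicate 1 or 3 (adjusted p = 0.12, 0.10, 0.16 and 0.051). That of Lama1 was lost without ethanol replicate 2 (0.069) and with library totals (0.052). That of Sox17 was lost on leaving out any 1 of the ethanol libraries or KO replicate 1 or 3 (0.072 to 0.10), and without a filter on low counts (0.066). Of 12 trophoblast markers 10 were tested and Krt7 rose (3 rose with the block), a call that DESeq2 did not make (adjusted p = 0.066) and that was lost on leaving out any 1 of the ethanol libraries or KO replicate 1 or 3 (0.052 to 0.17). Of 20 p53 target genes, which the tumour suppressor p53 activates under stress, 19 rose on deletion, and their sum went from 1300 to 1420 CPM to 2480 to 2530 CPM. The part of these markers and of the p53 genes in the members' differences was not tested.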

How the data were processed

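RNA was sequenced from 9 libraries of mouse ES cells after depletion of ribosomal RNA, with directional library preparation, per the labels' protocols. For every library the authors deposited a table of raw counts by versioned Ensembl gene identifier, with 5 closing rows that name no gene. Those rows took 27.3% to 34.6% of a library's reads and stayed out of totals and tests. The submitters' processing notes name mm9, STAR, HTSeq, cutadapt, edgeR, Bowtie 1.1.2, MACS2 and DiffBind, without roles. Whether counting used strand is not given there.

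Of 37310 gene rows 32620 matched a symbol by identifier. GENCODE M21, on the GRCm38 assembly, served for symbols, chromosomes and exon lengths, and promoter windows came from RefSeq (GRCm38.p6). Counts were fitted with edgeR 4.0.16 (limma 3.58.1, R 4.3.3; robust quasi-likelihood, TMM, filterByExpr), 9 libraries in 1 fit with a mean per group and 6 residual degrees of freedom, with Benjamini-Hochberg adjustment over 16224 genes and a threshold of 0.05. CPM per library and log2 fold changes with SE (the fold change over the square root of F) come from this fit. The script was tested on simulated counts. Promoters were searched as the 250 bases before the start.

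Members and lists were chosen with earlier results of these data known. Genes outside the members were named by rule: landmark genes, up to 3 genes with the smallest p in each list and in each comparison with the ethanol control, and the 2 closest patterns per member. Libraries with the same replicate number had deviations from their group means that correlated across genes, with r from 0.11 to 0.31 in all 9 pairs, so the numbers pair them. What the number stands for is not stated. Alternatives were RLE factors, library totals, DESeq2 1.42.0, 2 other filters, the groups compared alone, the replicate block and each library left out.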

Additional observations from a re-analysis of the deposited data

How the results depend on the processing

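Each value was computed under 16 alternatives, of which 9 leave out 1 library. For the members, 104 of 128 values kept direction and call in KO against the ethanol control, 104 of 128 in the 4OHT control against the ethanol control and 127 of 128 in KO against the 4OHT control. The exception there was Sall2, at -0.01 without 4OHT control replicate 1 and not called. The sign of a called member never changed under these alternatives. The number of members called in KO against the ethanol control was 1, and became 2 with DESeq2, without a filter on low counts, with a filter at 1 CPM and in the fit of the groups compared, in each by the addition of Sall2, 5 with the replicate block, and 0 to 2 with 1 library left out. In the 4OHT control against the ethanol control it was 6 and ranged from 2 to 7 with 1 library left out, lowest without ethanol replicate 2; in KO against the 4OHT control it was 7 each time. Over all genes, 4417, 2987 and 6319 calls became 6936, 5323 and 8337 with the replicate block, and 3067 to 4559, 1974 to 3069 and 5011 to 6268 with 1 library left out; the cause was not tested. The block changed no member call beyond those given above. Of 4341 values of other named genes, 142 lost and 122 gained a call, 78 uncalled values changed sign and 0 called values did. Sox3 had the fewest counts of the members in every library, and differences inside the intervals given were not detectable at this depth.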
